A study of Mus musculus with 6 samples.

Results

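Peroxisomes are small, membrane-bound organelles that shorten very long, branched and dicarboxylic fatty acids, build the first steps of ether lipids and break down hydrogen peroxide. They make no protein of their own. Their matrix enzymes are carried in from the cytosol by the receptors PEX5 and PEX7, and a dedicated set of proteins, the peroxins, inserts the membrane proteins, docks and recycles the receptors and elongates the organelle. In liver, fatty acids that bind the nuclear receptor PPARα raise many of the β-oxidation genes and lead to more peroxisomes. The transcripts of 30 such genes were followed here. They were chosen by name for their known function, but with earlier results of these data known. All 30 were found among the 24589 genes of the table. Of the 30, 18 encode lipid enzymes, transporters and catalase and 12 encode peroxins.

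Transcript levels were measured by bulk RNA-seq in primary CD8+ T cells of wild-type mice, activated with anti-CD3/28. One group of 3 libraries was kept with trans-vaccenic acid (TVA) at 20 µM for 24 h. TVA is a trans fatty acid of ruminant milk and meat. The other group of 3 libraries received DMSO. The labels do not say whether the libraries of a group came from separate mice, so p-values measure only the spread between these libraries, which may be technical. All values are TPM, a transcript level scaled for transcript length and to the same total in each library, so that levels of different genes can be compared. Sequencing depth is unknown. In bulk RNA, fewer cells of a type and less RNA per cell cannot be told apart.

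The libraries correlated with each other at 0.989 to 0.999 across the 10866 genes tested (log2(TPM + 1), where genes are not independent replicates). On the first principal component, which held 59.1% of the variance, DMSO replicate 2 (1.23) lay nearer to the TVA libraries (8.80 to 10.8) than to DMSO replicates 1 and 3 (-18.2 and -12.8). The 6 CD8 T cell markers measured (Cd8a, Cd8b1, Cd3d, Cd3e, Cd3g and Cd2) summed to 1670 to 1800 TPM in the DMSO libraries against 1912 to 1943 TPM in the TVA libraries. All TVA values lay above the DMSO values for Cd8a, Cd3d, Cd3e and Cd3g. The groups overlapped for Cd8b1 (means of 319 TPM in DMSO and 312 TPM in TVA) and for Cd2 (153 and 155 TPM). Of the B cell markers, Ms4a1 was at 0.24 to 0.38 TPM and 0.24 to 0.46 TPM, Cd79a at 0.69 to 1.07 TPM and 0.70 to 1.06 TPM, and Cd79b at 9.94 to 13.3 TPM and 9.15 to 9.68 TPM. Cd4 was at 3.80 to 4.46 TPM and 3.33 to 3.64 TPM, the NK cell markers Ncr1 and Klrb1c summed to no more than 0.85 TPM, and the red cell markers (Hba-a1, Hbb-bs and Alas2) to 11.5 to 24.8 TPM and 7.27 to 20.5 TPM. The 5 myeloid markers (Lyz2, Csf1r, Itgam, Adgre1 and Cd14) summed to 34.2 to 36.7 TPM in the DMSO libraries against 45.7 to 48.3 TPM in the TVA libraries, and each of the 5 had TVA values that all lay above the DMSO values. Their part in the results was not tested.

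Among the peroxisome genes, Phyh and Abcd3 rose with TVA. Phyh encodes phytanoyl-CoA 2-hydroxylase, which opens the α-oxidation of branched fatty acids, and Abcd3 encodes PMP70, the membrane transporter that imports branched-chain and dicarboxylic acyl-CoAs. The stretch just upstream of the start of each is shown because these are the members whose change passed the test, and that of Ehhadh because it is a textbook PPARα target in liver. Sequences are the 250 bases before the RefSeq start (GRCm38.p6), 5′ to 3′ on the gene's strand, and capitals mark TGACG, the core motif of the cAMP response element that CREB binds.
Phyh, chr2:4918746-4918995, plus strand: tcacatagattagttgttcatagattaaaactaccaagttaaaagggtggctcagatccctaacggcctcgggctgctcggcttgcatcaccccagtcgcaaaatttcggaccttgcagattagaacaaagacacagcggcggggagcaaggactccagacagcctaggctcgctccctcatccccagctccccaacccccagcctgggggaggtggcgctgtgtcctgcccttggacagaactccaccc
Abcd3, chr3:121815303-121815552, minus strand: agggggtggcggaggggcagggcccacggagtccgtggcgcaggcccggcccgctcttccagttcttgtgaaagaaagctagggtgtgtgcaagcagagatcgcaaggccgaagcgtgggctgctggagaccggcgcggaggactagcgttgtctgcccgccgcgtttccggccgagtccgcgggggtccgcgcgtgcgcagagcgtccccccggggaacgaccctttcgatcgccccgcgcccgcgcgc
Ehhadh, chr16:21787835-21788084, minus strand: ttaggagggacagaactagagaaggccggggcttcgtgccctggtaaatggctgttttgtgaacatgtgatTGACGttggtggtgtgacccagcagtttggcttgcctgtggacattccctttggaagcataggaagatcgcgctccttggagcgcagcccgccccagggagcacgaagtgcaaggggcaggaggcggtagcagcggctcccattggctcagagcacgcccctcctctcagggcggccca
Windows were found for 24 of the 30 genes, and a gene with several starts counted as holding a motif when any of its windows did. For 19 of the 24, the bases after a start were found near the opening of a GENCODE transcript. On either strand, TGACG was present in 10 of the 24 (41.7%) and in 19.8% of the 27025 genes with a window. These 27025 genes were not limited to the 10866 tested. For Abcd3, TGACG lay only in the window of a start downstream of the one shown. The full element TGACGTCA, which overlaps the core motif, was present only in the window of Pex13 among the 24 and in 1.77% of all genes. The nuclear receptor core motif AGGTCA was present in 2 of the 24 (8.33%, Cat and Scp2) and in 15.8% of all genes. A direct repeat of AGGTCA with 1 base between the copies, the element that PPARs bind with RXR, was in none of the 24 windows and in 0.0407% of all genes. A match is a description of the letters only, and shorter or degenerate elements were not searched.

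The levels of the 30 genes spanned a wide range. By the mean of all 6 libraries, Far1 was highest at 81.0 TPM, followed by Scp2 at 69.1, Gnpat at 60.4, Abcd3 at 49.3 and Cat at 41.0 TPM. At the low end, Pex26 was at 2.86 and Pex11a at 2.25 TPM. Abcd2, the transporter of very long-chain acyl-CoAs, was near 0 (0.07, 0.02 and 0.06 TPM in the DMSO libraries against 0.14, 0.07 and 0.07 TPM in the TVA libraries). It was the only member that did not reach 1 TPM in at least 3 libraries, so 29 members were tested and 20 of them had a mean of at least 10 TPM. Genes next to each other in this order often overlapped in their library values. Cat, for example, ran from 37.0 to 45.2 TPM and Hsd17b4 from 37.8 to 40.7 TPM.

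**Figure D1:**
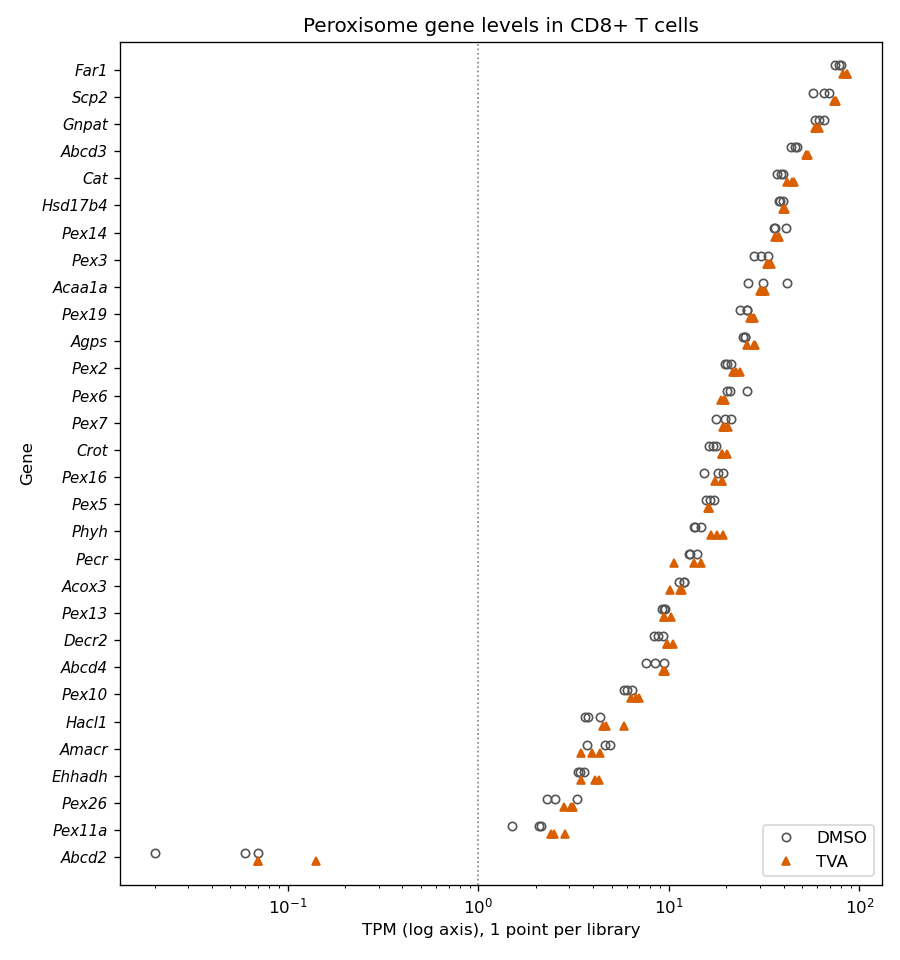
TPM of the 30 peroxisome genes in each library, on a log axis, ordered by mean level, with open circles for the 3 DMSO libraries, filled triangles for the 3 TVA libraries and a dotted line at 1 TPM. Far1 was highest with a mean of 81.0 TPM and Abcd2 lay below 1 TPM in all 6 libraries.

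Added over the 30 genes, the level was 687, 675 and 669 TPM in the DMSO libraries against 713, 725 and 733 TPM in the TVA libraries, a mean difference of 46.4 TPM. All 3 TVA sums lay above the DMSO sums. The 18 enzyme, transporter and catalase genes accounted for 39.5 TPM of it, with sums of 469, 468 and 466 TPM in DMSO and 499, 508 and 515 TPM in TVA. Scp2 alone added 10.8 TPM, Far1 and Abcd3 7.34 and 7.30 TPM, Cat 5.10 TPM and Phyh 3.97 TPM. The 12 peroxin genes summed to 218, 207 and 203 TPM in the DMSO libraries against 214, 217 and 218 TPM in the TVA libraries, and these ranges overlapped. A list of 60 other peroxisome genes, described below, summed to 1800, 1675 and 1698 TPM in the DMSO libraries. In the TVA libraries they summed to 1741, 1754 and 1767 TPM, and these ranges overlapped. All these sums are descriptions and were not tested.

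The comparison of TVA with DMSO addressed which genes respond to the fatty acid. Gene by gene with limma on log2(TPM + 1), 2 of the 29 tested members (6.90%) had an adjusted p under 0.05, where the share over all genes tested was 8.51% (5.28% higher and 3.23% lower). Both were higher with TVA. At this threshold 0 members were lower, and at an unadjusted p under 0.05 there were also 0 lower. At an unadjusted p under 0.05, 12 members (41.4%) were higher, against 31.8% of all genes in either direction and 21.5% higher. For the same 12 genes, the TVA values lay above all DMSO values without overlap, which was the case for 27.3% of all genes tested, and for 1 member (Pex6) they lay below, against 11.2%. The median log2 change of the 29 members was 0.12 and that of all genes tested was 0.04. Members' changes ran from -0.18 (Pex6) to 0.34 (Phyh).

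**Figure D2:**
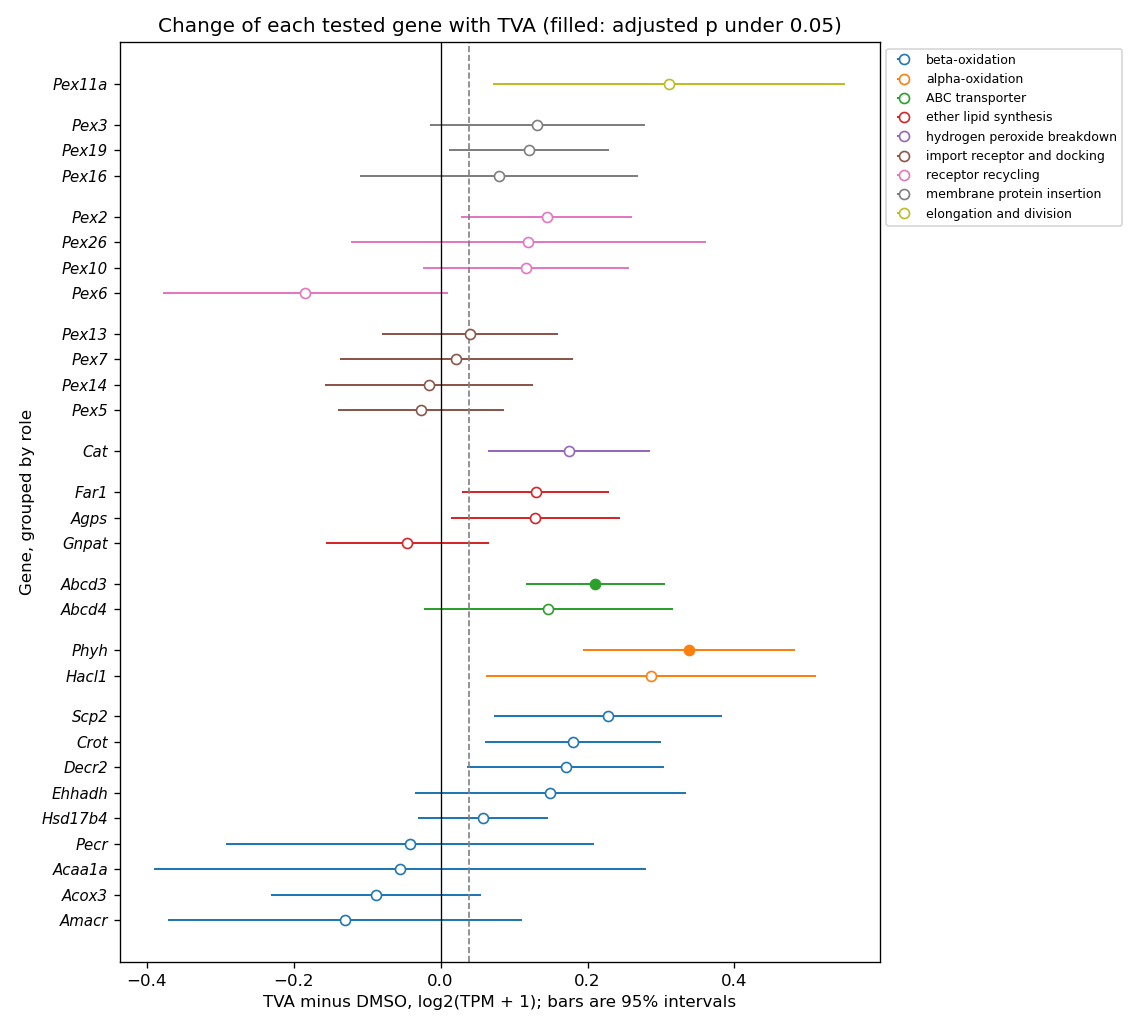
Log2 change (TVA minus DMSO, log2(TPM + 1)) of the 29 tested members, grouped by role, with 95% intervals from limma; filled symbols have an adjusted p under 0.05 and the dashed line is the median of all genes tested, 0.04. Phyh (0.34) and Abcd3 (0.21) are the filled symbols, and the 4 import receptor and docking genes lie between -0.03 and 0.04.

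For both α-oxidation genes all TVA values lay above the DMSO values, and Phyh passed the test. Phyh (chr2:4919019-4938730, plus strand, GRCm38) was at 13.7, 13.5 and 14.7 TPM in the DMSO libraries against 16.7, 17.9 and 19.2 TPM in the TVA libraries. The TVA mean was 28.5% higher, or 0.34 on the log2 scale with an SE of 0.062 (limma adjusted p 0.022). In the GENCODE annotation, which may not be the one behind the table, no exon of Phyh or of Abcd3 overlaps that of another gene. For 12 of the 30 members an exon does, on the same strand for 3 of them (Crot, Hacl1 and Gnpat), and the levels of these 12 are uncertain. Hacl1 encodes the lyase that cleaves the product of the Phyh reaction. It was at 4.34, 3.76 and 3.63 TPM in the DMSO libraries against 5.80, 4.53 and 4.68 TPM in the TVA libraries. Its log2 change of 0.29 was of similar size to that of Phyh, but with an SE of 0.097 it did not pass (limma adjusted p 0.096). Hacl1 exons overlap those of Gm49387 on the same strand and of Btd on the other strand, and the use of strand in counting is not stated.

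Phyh lost its call when TVA replicate 1, 2 or 3 was left out (limma adjusted p 0.053, 0.11 and 0.10) and with every gene above 0 TPM in the test (0.051). Without one of the TVA libraries, 102 to 125 of all genes passed. The log2 change of Phyh stayed between 0.26 and 0.39 over 14 alternatives, with adjusted p from 0.021 to 0.11.

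Of the ABC transporters of subfamily D, Abcd3 (chr3:121758774-121815302, minus strand, GRCm38) was at 43.8, 47.1 and 46.1 TPM in the DMSO libraries against 52.8, 53.5 and 52.6 TPM in the TVA libraries. All TVA values lay above the DMSO values and within 1 TPM of each other. The TVA mean was 16.0% higher, or 0.21 on the log2 scale with an SE of 0.041 (limma adjusted p 0.026). The gene no longer passed under 7 of 14 alternatives, among them those without DMSO replicate 3 (0.060), without TVA replicate 1, 2 or 3 (0.096, 0.14 and 0.12), with median-of-ratios scaling (0.062) and with quantiles made equal (0.054). Over the 14 alternatives its log2 change ran from 0.14 to 0.23 and its adjusted p from 0.012 to 0.14. Abcd4, a family member that serves cobalamin transport from lysosomes, had 8.49 ± 0.910 TPM (SD, n = 3) in DMSO libraries and 9.47 ± 0.122 TPM in TVA libraries, and the groups overlapped (0.15 on the log2 scale, limma adjusted p 0.21).

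None of the 9 β-oxidation genes passed the threshold (0 of 9, limma adjusted p 0.065 to 0.81), and 3 of them had an unadjusted p under 0.05, all higher. Over all genes tested 8.51% passed and 21.5% were higher at an unadjusted p under 0.05. Scp2 encodes both the thiolase for branched acyl-CoAs and sterol carrier protein, which a gene-level table does not separate. It was at 57.1, 69.1 and 64.8 TPM in the DMSO libraries against 73.4, 74.4 and 75.7 TPM in the TVA libraries. The groups did not overlap, but DMSO replicate 1 stood well below the other DMSO libraries (0.23 on the log2 scale with an SE of 0.067, limma adjusted p 0.070). Without DMSO replicate 2, Scp2 passed (0.015). Crot, the octanoyltransferase that hands shortened acyl chains to carnitine, was at 16.2, 17.7 and 17.1 TPM in the DMSO libraries against 19.0, 20.3 and 18.9 TPM in the TVA libraries (0.18 on the log2 scale, limma adjusted p 0.065), and it passed without DMSO replicate 2 (0.038). Crot was at 0.11 after the GC correction (limma adjusted p 0.12), and its adjusted p reached 0.23 over 14 alternatives. Decr2, the dienoyl-CoA reductase for unsaturated chains, was at 8.75, 9.34 and 8.38 TPM in the DMSO libraries against 10.6, 9.80 and 9.79 TPM in the TVA libraries (0.17 on the log2 scale, limma adjusted p 0.098). These 3 genes had all TVA values above their DMSO values (33.3% of the 9, against 27.3% of all genes tested).

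Neither bifunctional enzyme gene passed the test, nor did the oxidase gene Acox3. Ehhadh, the bifunctional enzyme of straight-chain β-oxidation, was low at 3.60, 3.41 and 3.33 TPM in the DMSO libraries against 4.30, 4.08 and 3.45 TPM in the TVA libraries. TVA replicate 3 lay among the DMSO values (0.15 on the log2 scale, 95% interval -0.04 to 0.33, limma adjusted p 0.23). Hsd17b4, which encodes the bifunctional enzyme for branched and very long chains, had 38.5 ± 0.907 TPM (SD, n = 3) in DMSO libraries and 40.1 ± 0.595 TPM in TVA libraries (0.06 on the log2 scale, 95% interval -0.03 to 0.15). Acox3, the oxidase for branched acyl-CoAs, had 11.8 ± 0.410 and 11.1 ± 0.805 TPM (-0.09 on the log2 scale, 95% interval -0.23 to 0.06).

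The thiolase gene Acaa1a was the most variable abundant member, at 41.5, 25.9 and 31.1 TPM in DMSO replicates 1, 2 and 3 and 30.1, 30.8 and 32.0 TPM with TVA. The TVA libraries lay inside the DMSO range (-0.05 on the log2 scale, 95% interval -0.39 to 0.28), and the sign turned without DMSO replicate 1 (0.12) and with the GC correction described below (0.07). Acaa1a has a near-identical copy, Acaa1b, so the split of reads between them is uncertain, although Acaa1b was listed at no more than 0.08 TPM. Amacr, the racemase that prepares branched chains for β-oxidation, had 4.41 ± 0.616 and 3.93 ± 0.441 TPM (-0.13 on the log2 scale, limma adjusted p 0.41). Pecr, a trans-2-enoyl-CoA reductase, had 13.3 ± 0.731 and 12.96 ± 2.14 TPM (-0.04 on the log2 scale, limma adjusted p 0.81).

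Of the ether lipid genes, Far1 and Agps had all TVA values above DMSO and Gnpat did not. Far1 makes the fatty alcohol of the ether bond. It was at 74.2, 78.1 and 79.8 TPM in the DMSO libraries against 81.7, 86.0 and 86.4 TPM in the TVA libraries (0.13 on the log2 scale, limma adjusted p 0.094). An antisense transcript, Far1os, overlaps its exons. Agps, which places that alcohol on the glycerol backbone, was at 25.0, 24.4 and 25.1 TPM in the DMSO libraries against 25.6, 27.9 and 28.4 TPM in the TVA libraries (0.13 on the log2 scale, limma adjusted p 0.12). Gnpat, the acyltransferase that starts the pathway, was at 64.8, 58.4 and 61.1 TPM in the DMSO libraries against 58.3, 58.9 and 61.1 TPM in the TVA libraries. Its groups overlapped (-0.05 on the log2 scale, 95% interval -0.16 to 0.07, limma adjusted p 0.54).

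Cat encodes catalase, which breaks down the hydrogen peroxide that the oxidases release. It was at 38.9, 39.5 and 37.0 TPM in the DMSO libraries against 41.4, 45.2 and 44.1 TPM in the TVA libraries. The groups did not overlap, with a TVA mean 13.3% higher (0.17 on the log2 scale with an SE of 0.048, limma adjusted p 0.060). Cat passed when DMSO replicate 2 was left out (0.039) and with the GC correction (0.044). Its adjusted p ran from 0.039 to 0.22 over 14 alternatives.

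No peroxin gene passed the threshold (0 of 12 by limma), where 8.51% of all genes tested did. At an unadjusted p under 0.05 there were 3, all higher (25%, against 21.5% of all genes). Pex11a, which promotes elongation of the organelle before division and is a PPARα target in liver, was at 2.12, 2.08 and 1.51 TPM in the DMSO libraries against 2.86, 2.49 and 2.42 TPM in the TVA libraries. All TVA values lay above DMSO and the mean was 36.1% higher, but at this low level the SE was 0.10 (0.31 on the log2 scale, limma adjusted p 0.093). Pex2, a subunit of the ubiquitin ligase that recycles the import receptor, had 20.4 ± 0.810 and 22.7 ± 0.974 TPM (0.14 on the log2 scale, limma adjusted p 0.10). Pex19, the cytosolic chaperone of new membrane proteins, had 24.98 ± 1.14 and 27.2 ± 0.570 TPM (0.12 on the log2 scale, limma adjusted p 0.13). Pex11a, Pex2 and Pex19 were the peroxins whose TVA values all lay above DMSO (25%, against 27.3% of all genes tested).

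The genes of matrix import had the smallest changes. Pex5, the receptor for most matrix enzymes, was at 17.3, 16.4 and 15.7 TPM in the DMSO libraries against 16.2, 16.0 and 16.2 TPM in the TVA libraries (-0.03 on the log2 scale, 95% interval -0.14 to 0.09). Pex7, the receptor for the thiolase, phytanoyl-CoA hydroxylase and alkyl-DHAP synthase, had 19.5 ± 1.83 and 19.7 ± 0.605 TPM (0.02 on the log2 scale, 95% interval -0.14 to 0.18). The docking genes Pex13 and Pex14 had log2 changes of 0.04 and -0.02. For these 4 genes the groups overlapped, and limma adjusted p ran from 0.61 to 0.88. Phyh and Pex7, the enzyme and its receptor, thus had log2 changes of 0.34 (SE 0.062) and 0.02 (SE 0.068).

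Among the other peroxins, Pex3 and Pex16, which insert membrane proteins together with Pex19, had log2 changes of 0.13 and 0.08 (limma adjusted p 0.19 and 0.52). Pex3 passed without DMSO replicate 2 (0.19 on the log2 scale, limma adjusted p 0.042). It was at 0.07 without DMSO replicate 1 (0.33) and at 0.05 after the GC correction (0.52). Pex10, a second gene of the ubiquitin ligase, had 6.10 ± 0.309 and 6.69 ± 0.335 TPM (0.12 on the log2 scale, limma adjusted p 0.22). Pex6 and Pex26, the ATPase that pulls the receptor out of the membrane and its anchor, had changes of opposite sign, and neither passed. Pex26 was at 3.30, 2.52 and 2.30 TPM in the DMSO libraries against 3.05, 2.82 and 3.14 TPM in the TVA libraries (0.12 on the log2 scale, limma adjusted p 0.45). With a library left out, its log2 change ran from 0.04 to 0.23. Pex6 was at 25.6, 20.9 and 20.3 TPM in the DMSO libraries against 19.5, 19.8 and 18.8 TPM in the TVA libraries, the only member with all TVA values below DMSO (-0.18 on the log2 scale, 95% interval -0.38 to 0.01, limma adjusted p 0.17). After the GC correction its log2 change was 0.07.

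The GC content of a gene's transcripts moved with the change between groups. Over all genes tested the Spearman correlation of GC content with the log2 change was -0.40, and over the 29 members it was -0.53 (a description over genes that share the same libraries). Within DMSO, replicate 1 minus replicate 3 correlated with GC content at 0.62 (Spearman). The 16 members below the median GC content of all genes (50.4%) had a median log2 change of 0.15, where all genes below it had 0.08. The 13 members at or above it had 0.04, where all genes in that range had -0.01. The 9 members that were highest in DMSO replicate 1 had GC contents of 50.0% to 63.0%, with Pex6 at 63.0% and Acaa1a at 59.4%, whereas Phyh and Abcd3 had 43.8% and 44.3%. What part GC content has in these changes was not tested beyond the following correction.

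**Figure D3:**
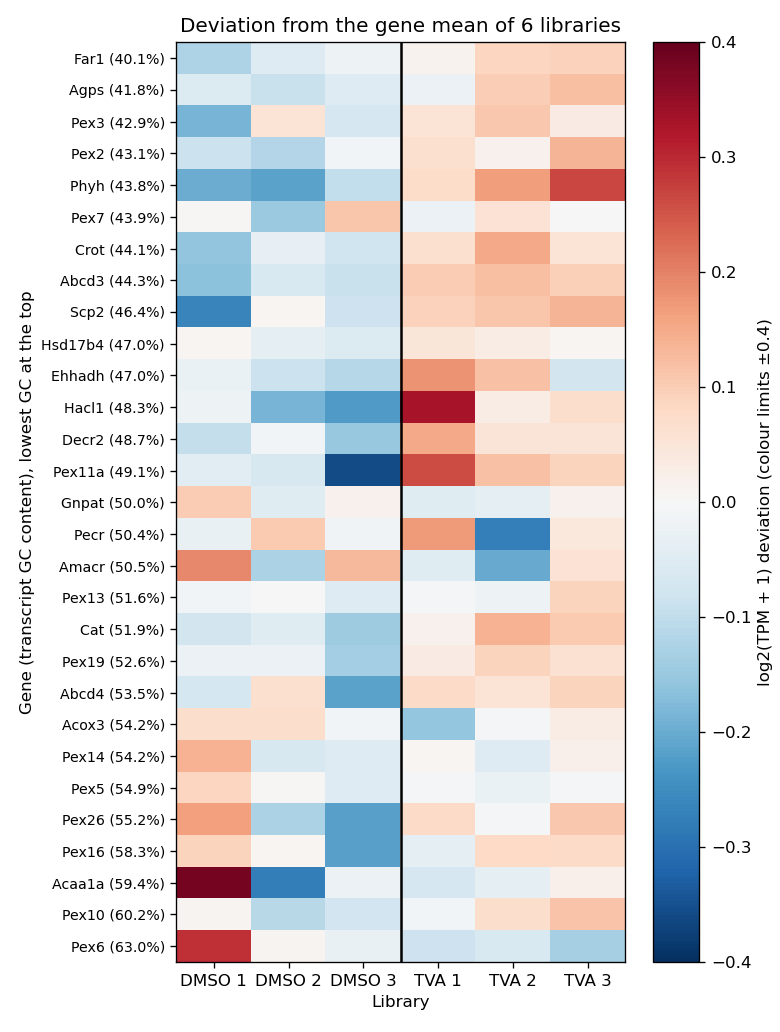
Deviation of log2(TPM + 1) from each gene's mean of the 6 libraries, for the 29 tested members ordered by transcript GC content, with red above and blue below the mean. Members of low GC content at the top are mostly blue in the DMSO columns and red in the TVA columns, while Pex6 (63.0%) and Acaa1a (59.4%) at the bottom are darkest in DMSO 1.

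In the GC correction, a smooth curve of the deviation on GC content was subtracted within each library. Phyh then had a log2 change of 0.26 (limma adjusted p 0.024) and Abcd3 0.14 (0.035), and both still passed. Cat (0.16, limma adjusted p 0.044) and Pex10 (0.26, 0.045) passed as well, so that 4 of 29 members (13.8%) were called, beside 1104 of all genes (10.2%). The median over members was 0.07, beside 0.02 over all genes. The ether lipid genes Far1 and Agps were at 0.03 and 0.04 (limma adjusted p 0.44 and 0.52).

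**Figure D4:**
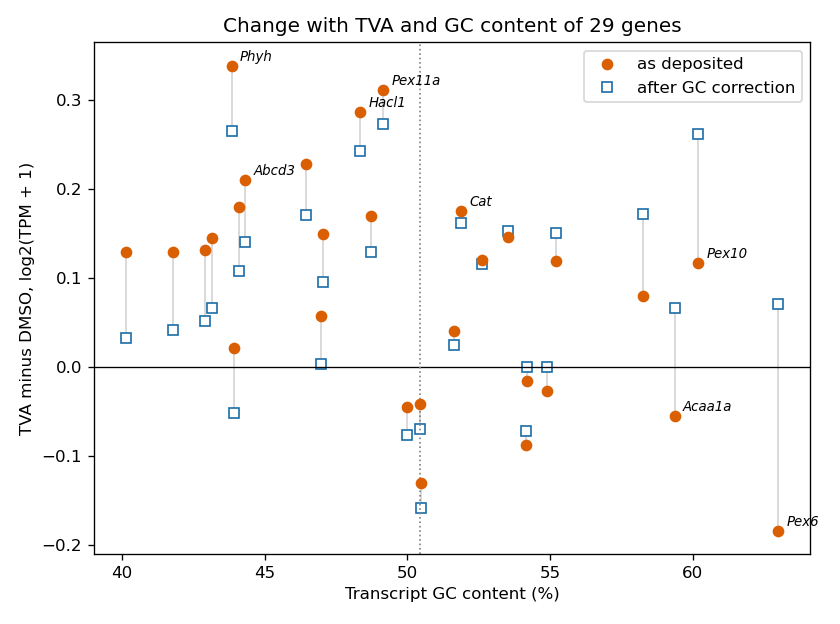
Log2 change of the 29 members against transcript GC content, as deposited (filled circles) and after the GC correction (open squares), joined per gene; the dotted line is the median GC content of all genes tested, 50.4%. The 20 members with GC contents of 40.1% to 52.6% had lower values after the correction (Phyh 0.34 and 0.26), and the 9 with 53.5% to 63.0% had higher ones (Pex6 -0.18 and 0.07).

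A list of 60 other peroxisome genes, all in the table, put these values in context. For 21 of them the filter was not reached, 12 of these being listed at 0 in every library, among them the liver enzymes Uox, Agxt, Hao2 and Dao. Of the 39 tested, 4 (10.3%) passed the threshold, 2 higher and 2 lower, beside 8.51% of all genes. The median log2 change was 0.04, as over all genes. Hsdl2, a peroxisomal dehydrogenase-like protein of lipid metabolism, rose from 30.8, 31.4 and 31.3 TPM with DMSO to 40.3, 40.9 and 40.5 TPM with TVA (0.37 on the log2 scale with an SE of 0.036, limma adjusted p 0.0030). It passed under each of 14 alternatives. Tmem135, a peroxisomal membrane protein, rose from 14.6, 13.5 and 14.0 TPM to 16.0, 16.3 and 16.1 TPM (0.19 on the log2 scale with an SE of 0.045, limma adjusted p 0.048), but lost its call under 10 of 14 alternatives (adjusted p up to 0.19), including without DMSO replicate 2 (0.060), DMSO replicate 3 (0.097) or any TVA library (0.12 to 0.19) and after the GC correction (0.086).

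The 2 genes of that list that passed the threshold as lower were Xdh and Ephx2. Xdh, the xanthine dehydrogenase of purine breakdown, which is mainly cytosolic, fell from 19.0, 18.4 and 17.1 TPM to 11.6, 11.7 and 12.6 TPM (-0.56 on the log2 scale with an SE of 0.056, limma adjusted p 0.0031) and passed under each of 14 alternatives. Ephx2, the soluble epoxide hydrolase of cytosol and peroxisomes, was low and fell from 1.35, 1.50 and 1.43 TPM to 0.28, 0.43 and 0.61 TPM (-0.76 on the log2 scale with an SE of 0.10, limma adjusted p 0.0097). At this low level the value depends on the pseudocount, and was -1.54 with a pseudocount of 0.1. The groups were wide apart, but without TVA replicate 2 the adjusted p was 0.054. The peroxisomal protease genes had changes of opposite sign, and neither passed with all 6 libraries. Lonp2 had 50.2 ± 2.04 and 56.1 ± 2.02 TPM (0.16 on the log2 scale, limma adjusted p 0.070) and Tysnd1, with 22.7 ± 7.09 and 16.3 ± 0.846 TPM, had -0.41 (0.18). The Tysnd1 groups overlapped. After the GC correction Tysnd1 was at -0.024 (limma adjusted p 0.84) and Lonp2 at 0.12 (0.081). Without DMSO replicate 1, Tysnd1 was at -0.20 (0.31). Without DMSO replicate 2 both genes passed, Tysnd1 at -0.64 (0.0091) and Lonp2 at 0.19 (0.029).

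**Figure D5:**
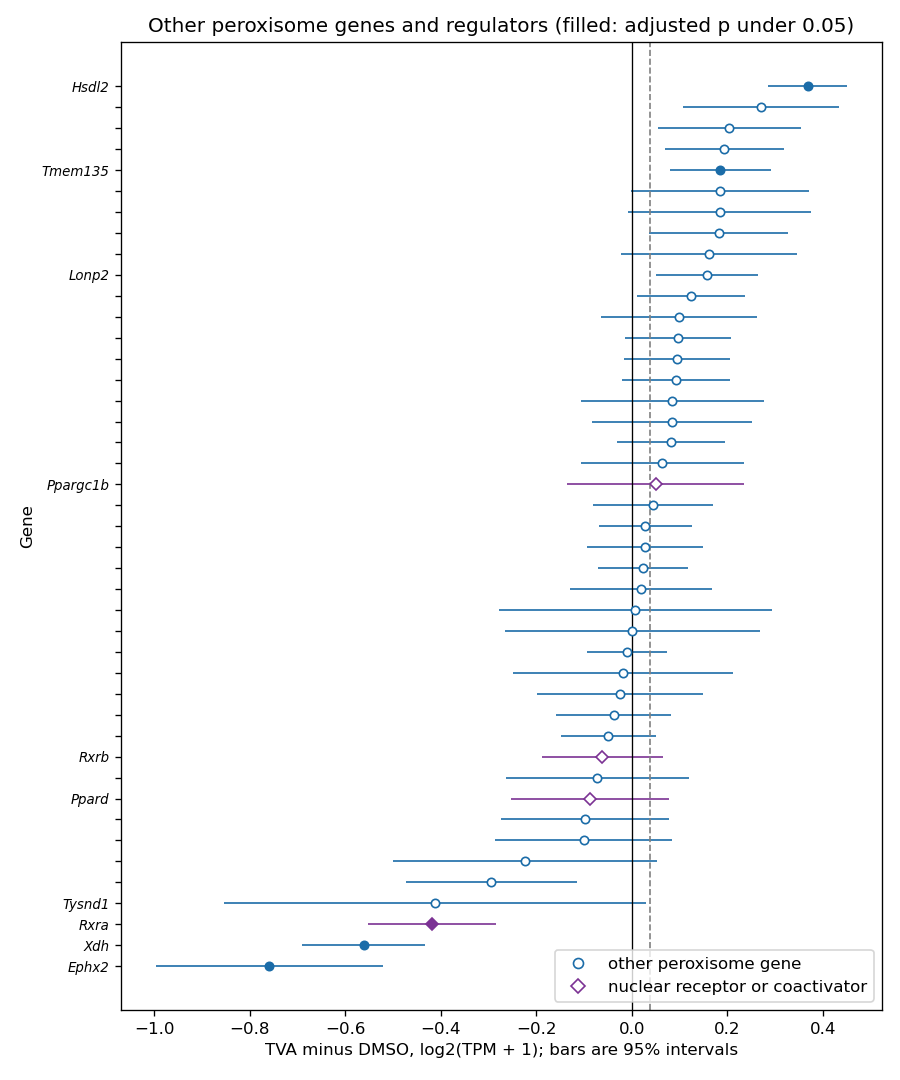
Log2 change (TVA minus DMSO, log2(TPM + 1)) with 95% limma intervals of the 39 tested genes of the other peroxisome list (circles) and 4 tested nuclear receptor and coactivator genes (diamonds), with names for the genes described in the text; filled symbols have an adjusted p under 0.05. Hsdl2 (0.37) and Tmem135 (0.19) are filled on the right, and Rxra (-0.42), Xdh (-0.56) and Ephx2 (-0.76) on the left.

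The receptors that control peroxisomal genes in other tissues were read for the same libraries. Ppara was near 0 at 0.01 to 0.05 TPM, Pparg at 0.02 to 0.19 TPM and the coactivator gene Ppargc1a at 0 to 0.02 TPM, and these 3 genes were not tested. Ppard was the PPAR present, with 12.04 ± 1.28 TPM (SD, n = 3) in DMSO and 11.2 ± 0.0208 TPM in TVA (-0.09 on the log2 scale, limma adjusted p 0.42). Their common partner gene Rxra fell from 6.94, 6.78 and 6.46 TPM to 5.02, 4.77 and 4.57 TPM (-0.42 on the log2 scale with an SE of 0.058, limma adjusted p 0.011), with 0.065 and 0.061 when TVA replicate 2 or 3 was left out. Rxrb had 48.7 ± 3.43 and 46.5 ± 0.952 TPM (-0.06 on the log2 scale, limma adjusted p 0.46), and the coactivator gene Ppargc1b 2.86 ± 0.352 and 2.99 ± 0.0700 TPM (0.05 on the log2 scale, limma adjusted p 0.69).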

How the data were processed

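The authors deposited one table of TPM values per gene symbol, with 1 column per library and 2 decimals. The submitters' processing notes name STAR, RSEM and mm10. Versions, annotation, filters and the use of strand are not given in the sources used here. Columns were assigned to libraries by the column name in each library's description, and groups were taken from the titles.

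The filter kept genes that reached 1 TPM in 3 or more libraries. The test was made on log2(TPM + 1), a scale that understates changes of low genes, with limma 3.58.1 (R 4.3.3, variance trend, two-sided, Benjamini-Hochberg over all 10866 genes, threshold 0.05). Figures were drawn with matplotlib 3.10.9. The fit was tested on simulated data. For the differential test the methods of the study refer to earlier work, so limma was chosen here. Members and lists were chosen by hand with earlier results of these data known. The lists were fitted and counted whole, and values of some of their genes are not reported here. Library values are given for members past the threshold, for the 3 most abundant and for the 3 uncalled members of largest change, and for others where groups are compared.

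GC content was the median over GENCODE vM21 transcripts, available for 99.4% of genes tested and for all 29 tested members, and was corrected by loess (span 0.5). Gene positions are from GENCODE vM21 and promoter windows from RefSeq GRCm38.p6, the build of mm10. Depth is unknown, so no counting interval is given. The other alternatives were a pseudocount of 0.1, all genes above 0 TPM, a mean level of 10 TPM or more, median-of-ratios scaling, quantile normalization, no variance trend, a replicate block and the omission of each library.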

Additional observations from a re-analysis of the deposited data

How the results depend on the processing

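The main result of 2 members called, both higher, was 1 with all genes above 0 TPM, with median-of-ratios scaling, with quantile normalization and with a replicate block, 4 after the GC correction, and 0 to 6 (all higher) with a library left out. It was 6 (20.7%) without DMSO replicate 2, where 20.6% of all genes passed, and 0 without any TVA replicate, where 0.939% to 1.15% passed. No alternative called a member lower. The members' median log2 change of 0.12 was 0.10 with genes of at least 10 TPM, 0.098 after median-of-ratios scaling, 0.071 after the GC correction and 0.083 to 0.14 with a library left out. The 925 genes called overall were 494 when every gene above 0 TPM was kept, 608 at 10 TPM or more, 218 with the block and 102 to 2242 with a library left out. The other peroxisome genes called, 4, were 2 to 10 with a library left out. Of all calls, 62.1% were higher, but 38.7% with median-of-ratios scaling, 46.1% with quantile normalization and 52.0% with GC corrected. For these shifts the cause was not tested.

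Same-numbered libraries deviated together with correlations of 0.16, 0.03 and -0.08, so the numbers are not taken to pair the samples. With the replicate block, Phyh passed and Abcd3 did not (adjusted p 0.061).

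Of 397 values of single members under alternatives, 365 kept direction and side of the threshold, 11 were weaker, 6 stronger and 15 had the other sign. The sign changed for Pex7, at -0.0075 with median-of-ratios scaling, -0.0022 with quantile normalization and -0.052 with GC corrected, which also gave 0.067 for Acaa1a, 5.0e-04 for Pex14 and 0.071 for Pex6. With a library left out, Acaa1a ran from -0.21 to 0.12, Pecr from -0.14 to 0.085, Pex5 from -0.059 to 0.0093, Pex7 from -0.047 to 0.082, Pex14 from -0.051 to 0.050 and Pex16 from -0.0086 to 0.14. Genes that are not members were outside this count. Of these, Ppard was at 0.047 and Rxrb at 0.045 with GC corrected, and Ppargc1b ran from -0.0067 to 0.12 with a library left out. Depth is unknown, so what it limits cannot be stated.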
